A study of Mus musculus with 19 samples.

Results

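Older L1 elements are the copies of the LINE-1 (L1) retrotransposon that the mouse genome has kept from families that preceded the young L1Md ones. They were taken as every element of class LINE/L1 whose RepeatMasker name does not begin with L1Md. This gave 571000 of the 2634743 repeat elements for which reads were counted, and 126 of the 1234 repeat names. The counted repeats are labelled intergenic and are not all repeats of the genome. Even so, 13.2% of these older L1s overlapped a RefSeq gene. The young L1Md families, for comparison, held 100781 elements of 6 names, and LINE/L2, a more ancient LINE, held 37144 elements of 4 names. The names were placed by their prefix in 11 groups. Of these, L1_ (9 names), L1VL (3 names) and Lx (21 names) are rodent families, and together they made up 422050 elements, 73.9% of the older L1s. The other 93 names, of L1M (L1MA, L1MB, L1MC, L1MD, L1ME and a remainder called here other L1M), L1P and HAL1, covered 148950 elements. MusHAL1, with 3168 elements, was placed in HAL1 and so among these other names, although its name points to mouse. The capital letters in L1MD separate it from the young L1Md.

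The repeat reads came from 6 RNA-seq libraries, 2 for each of 3 tissues. Visceral yolk sac endoderm (ysE) and visceral yolk sac (VYS) mesoderm were peeled apart by hand at E9.25 from FVB/N embryos, each sample being the pooled tissue of whole litters, and the mesoderm kept the vessels and basement membrane. Cystic embryoid bodies (EBs), hollow spheres grown from ES cells, came from a single C57BL/6 x 129 ES cell clone (JN), at day 10 and day 15 of differentiation, and these libraries were used as replicates of 1 tissue. CpG methylation came from whole genome bisulfite sequencing of ysE and fetal liver at E12.5 and of day 15 cystic EBs, each with 1 library from the CAST/EiJ x FVB/N cross (CxF, maternal strain first) and 1 from the reverse cross (FxC), the EBs being grown from clones CF-C2 and FC-A2. Peaks of H3K4me3, a mark of active promoters, were from FVB/N VYS at E12.5, pooled from 2 litters. RNA and methylation therefore came from different strains, clones and stages, and in the RNA the strain, clone and day of the cystic EBs cannot be told apart from the tissue. The study prepared its RNA-seq libraries in 3 ways, 1 of them non-stranded. Which library was prepared in which way is not given in the sources used here, so whether preparation differed between the tissues is not known. No treatment or mutation was part of the design. In whole tissue, fewer expressing cells and less RNA per cell cannot be told apart.

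L1 is a mobile element that copies itself through RNA with an RNA-binding protein and a reverse transcriptase that it encodes. Most copies are cut short at their front end and lack a promoter, and the older ones have gathered mutations that stop them from moving. Mammalian genomes keep L1 DNA methylated in most tissues, methylated CpGs mutate quickly over evolution, and the yolk sac endoderm and placenta are known as tissues with a less methylated genome than the embryo proper.

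Older L1 copies were short, with a median of 288 bases against 808 in L1Md and 120 in LINE/L2, and 51.6% were under 300 bases. Together they covered 274.8 Mb, and 60806 of them were at least 1 kb long. The median RepeatMasker alignment score per base, which is higher for a copy closer to its family's consensus, was 3.92, between L1Md (7.41) and LINE/L2 (2.04). It was 6.27 in L1_, 4.49 in L1VL and 4.03 in Lx, and lay between 1.82 (L1ME) and 2.17 (L1MA) in the L1M groups. The median older L1 lay 20.6 kb from the nearest RefSeq gene, compared with 26.4 kb for L1Md and 9.91 kb for LINE/L2. As the counted repeats are labelled intergenic, these distances and the H3K4me3 shares below also depend on how the repeats were chosen. A peak of H3K4me3 lay on 690 older L1s, 0.121%, compared with 0.0407% of L1Md, 0.746% of LINE/L2 and 0.508% of all repeats. By group it was 0.0384% in L1VL, 0.0544% in L1_ and 0.0785% in Lx, against 0.339% in L1ME and 0.475% in L1MB.

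CpGs were few in the older L1 copies that lie just upstream of a RefSeq gene. Among 32851 RefSeq promoter windows of GRCm38.p6 (mm10), cut to the 250 bases before the start, 919 stretches of older L1 were found and 368 of them were at least 150 bases long. These held a mean of 7.42 CpGs per kb, against 39.4 in all windows, which include CpG-rich promoters. The rodent-named stretches were low, with 6.40 in L1_ (80 stretches), 6.26 in Lx (195) and 4.57 in L1VL (16), while the few of L1MB (9) and L1MD (6) had 13.2 and 23.2. The following are given on the strand of the gene, with CG in capitals, to show how few CpGs they hold and how alike some copies are. The first pair belongs to 26 L1_Mus3 copies of like length on chromosome 14 that come up again with the RNA, at chr14:4660503-4660657 (plus strand, upstream of Gm3239) and chr14:6415975-6416128 (minus strand, upstream of Lamtor3-ps). They matched at 154 of 155 aligned positions and held 1 CpG each.
L1_Mus3 upstream of Gm3239: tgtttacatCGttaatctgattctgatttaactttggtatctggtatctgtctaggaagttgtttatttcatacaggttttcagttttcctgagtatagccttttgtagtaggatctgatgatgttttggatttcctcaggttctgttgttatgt
L1_Mus3 upstream of Lamtor3-ps: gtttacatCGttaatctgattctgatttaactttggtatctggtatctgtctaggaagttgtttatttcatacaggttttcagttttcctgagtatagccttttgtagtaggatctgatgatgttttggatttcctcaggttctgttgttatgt
The next pair are L1_Mus2 copies on chromosome 6, at chr6:47679725-47679906 (upstream of Gm40364) and chr6:47662413-47662591 (upstream of Gm40367), both on the plus strand, which matched at 179 of 182 aligned positions.
L1_Mus2 upstream of Gm40364: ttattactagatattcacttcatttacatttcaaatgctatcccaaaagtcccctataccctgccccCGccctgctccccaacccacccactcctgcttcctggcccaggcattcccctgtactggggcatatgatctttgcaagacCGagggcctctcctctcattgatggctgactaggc
L1_Mus2 upstream of Gm40367: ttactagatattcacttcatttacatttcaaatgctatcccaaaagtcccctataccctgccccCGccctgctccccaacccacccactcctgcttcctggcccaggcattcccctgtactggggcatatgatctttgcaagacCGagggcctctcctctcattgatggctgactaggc
The last pair had the most CpG reads of the elements with such a stretch. They are an L1_Mur3 at chr10:75400495-75400744 (plus strand, upstream of Gm40694) and an L1M4 at chr14:25143335-25143491 (minus strand, upstream of 4930572O13Rik).
L1_Mur3 upstream of Gm40694: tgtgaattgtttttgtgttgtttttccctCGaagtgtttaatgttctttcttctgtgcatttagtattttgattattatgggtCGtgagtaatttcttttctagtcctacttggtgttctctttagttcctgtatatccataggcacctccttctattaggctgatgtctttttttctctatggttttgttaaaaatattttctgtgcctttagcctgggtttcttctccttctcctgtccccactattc
L1M4 upstream of 4930572O13Rik: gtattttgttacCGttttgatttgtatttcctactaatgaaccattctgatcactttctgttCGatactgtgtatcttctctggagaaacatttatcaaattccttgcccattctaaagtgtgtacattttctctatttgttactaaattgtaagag
Single elements carried too few bisulfite reads for a comparison of tissues. In the order CxF and FxC, methylated reads of the whole L1_Mur3 element were 26 of 27 and 8 of 10 in ysE, 0 of 4 and 11 of 14 in liver, and 22 of 23 and 2 of 3 in cystic EBs. For the L1M4 they were 4 of 8 and 4 of 6 in ysE, 10 of 11 and 0 of 3 in liver, and 15 of 19 and 16 of 16 in cystic EBs. In liver the crosses of either element lay far apart. Reads were therefore summed over all elements of a name or group before a percent was taken.

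Older L1s were less methylated in ysE than in liver or cystic EBs. Summed over all of them with CpG calls, methylation was 52.2% (CxF) and 42.0% (FxC) in ysE, 70.8% and 72.4% in liver, against 83.0% and 75.6% in cystic EBs. The ranges of the 3 tissues did not overlap, and the FxC library was the lower one in ysE and in cystic EBs. The mean of ysE was 47.1% ± 7.16, that of liver 71.6% ± 1.14 and that of cystic EBs 79.3% ± 5.23 (SD, n = 2). The gap between ysE and liver was -24.5 points in older L1, -18.4 in L1Md, -19.4 in LINE/L2 and -16.5 in all repeats. In ysE the 42.0% and 52.2% of older L1 stood beside 51.8% and 57.8% in L1Md, 53.4% and 61.7% in LINE/L2, and 56.4% and 63.8% in all repeats (FxC first). These sets share the libraries, so the differences between them were not tested. The values rest on 279721 to 484665 CpG reads per library and a mean of 1.80 to 2.21 reads per CpG call, and 345475 of the elements (60.5%) had no call in any library. Only 16 chromosomes had over 1000 calls in all 6 libraries. Chromosomes 13, 19, X and Y passed that number in no library, and chromosome 15 in neither liver library. The methylation values therefore do not cover the whole genome, and the elements without a call include those of chromosomes with few or no calls. Chromosomes 3, 4 and 6 stood apart by over 5 points from the rest in 1 library each (ysE FxC, ysE CxF and liver CxF), and without them ysE was at 49.4% ± 8.70.

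The CpGs inside older L1s were less methylated than those outside listed repeats within 1 kb of their ends. The difference was -6.40 points ± 0.263 in liver, -8.93 ± 0.0915 in ysE and -7.74 ± 2.49 in cystic EBs (SD, n = 2), with the flanks at 78.0%, 56.0% and 87.0%. In points, the ysE values lay below the liver values in both crosses, while those of cystic EBs spanned both. The flanks stood at different levels in the tissues, and the size of a gap in points depends on the level. The gaps were not compared on a scale that allows for this. No larger gap in ysE than in liver is therefore concluded.

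Methylation was lowest in L1VL and L1_ in every library, and Lx followed in all but cystic EB CxF, where L1P was lower (79.9%). L1VL had 40.1% and 32.2% in ysE (CxF, FxC), 60.0% and 62.0% in liver, against 72.0% and 62.3% in cystic EBs. L1_ was close to it, with 41.3% and 33.6%, 62.8% and 63.9%, and 75.8% and 67.7%. Lx was higher, with 48.0% and 38.8%, 69.4% and 71.0%, and 82.0% and 74.2%. These groups hold the copies least diverged from their consensus. The L1M groups, in contrast, were all higher in both ysE libraries, with the highest ysE values in L1MB, at 68.2% and 59.9% in ysE, 79.1% and 80.8% in liver, against 90.5% and 87.4% in cystic EBs. In HAL1, an L1 lineage that lost its second protein, the group values in ysE were 61.3% and 49.5%, while its most numerous name, MusHAL1, had 34.4% and 36.3%. L1P had 203 elements and too few reads to place, at 82.3% and 51.6% in ysE.

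**Figure D1:**
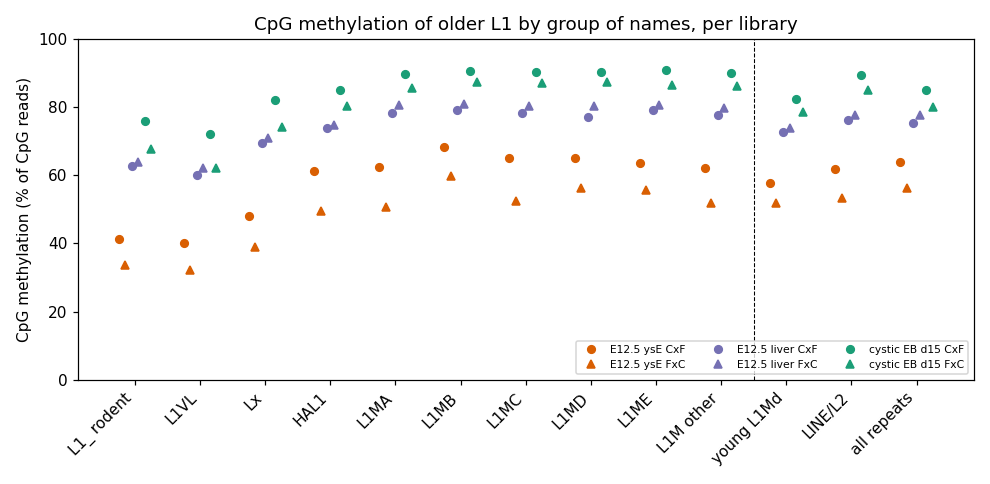
CpG methylation in percent of CpG reads (vertical axis) for 10 groups of older L1 names and, right of the dashed line, L1Md, LINE/L2 and all repeats; each point is 1 bisulfite library, circles CxF and triangles FxC (L1P, with few reads, is not drawn). In L1_ the ysE libraries were at 41.3% and 33.6%, below all liver and cystic EB libraries, and in L1MB at 68.2% and 59.9%.

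Within Lx, names with the numbers 2 and 3 were mostly lower in ysE than those with 7 and above. Lx2 was at 33.2% and 29.0%, Lx3_Mus at 32.9% and 28.8%, and Lx3A at 34.0% and 27.0%, with Lx2A1 (33.7% and 28.0%) beside them, but Lx2A was at 46.8% and 31.2%. Lx4B was at 46.2% and 36.5%, above Lx5 at 40.0% and 34.3%. Lx6 was at 46.4% and 36.8%, and Lx7 at 52.7% and 43.4%. Lx9, the name with the most Lx elements (35755), was at 53.3% and 42.5%, Lx8 reached 58.3% and 49.5%, and Lx10 was lower again at 50.2% and 40.5%. In each of these names the crosses differed, FxC being lower, so that neighbours in this order, such as Lx7 and Lx9, cannot be separated.

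Sparser and longer elements were less methylated. In ysE the mean rose from 32.8% ± 3.64 in elements with under 1 called CpG per kb to 64.7% ± 5.69 in those with over 16, and in liver from 60.4% ± 0.644 to 81.0% ± 1.35 (SD, n = 2). By length it fell from 55.0% ± 6.74 in ysE elements under 200 bases to 35.3% ± 5.95 in those of 2 to 4 kb, and was 38.1% ± 5.12 in those of 4 kb and over. The called CpG density also counts how often a CpG was reached by reads. Elements were then matched at 4 to 8 called CpGs per kb and at least 300 but under 1000 bases. Among them L1VL, L1_ and Lx still stood lowest in ysE and in the same order, with 35.9% ± 4.02, 38.0% ± 4.05 and 44.6% ± 6.67. The L1M groups lay between 50.6% ± 9.94 (L1MA) and 57.5% ± 5.91 (L1MB). Their order changed in part, with L1ME at 56.1% ± 5.13 above L1MD at 54.5% ± 7.35. L1Md elements matched in this way were at 40.5% ± 2.70, next to L1_.

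By name, methylation was lower in ysE than in liver in each older L1 name with at least 100 CpG reads in every library. Of 680 repeat names with at least 100 CpG reads in every library, 101 were older L1, and all 101 were called lower in ysE by limma on the log2 odds of methylation (Benjamini-Hochberg adjusted p at most 0.0274). Over all names tested, 90.9% were called lower, and 0% were called higher, by limma or by edgeR on the methylated and unmethylated reads. With a minimum of 20 reads, 108 of 120 older L1 names were called lower (90.0%, compared with 69.1% of all names), and 1 of the 120 had the opposite sign. The median log2 odds difference was -1.52 in older L1 and -1.22 over all names. Among the 64 names with at least 1000 reads in each library, the gap was widest in L1_Mur1, at 39.4% and 29.6% in ysE against 64.5% and 67.4% in liver, a difference of -31.5 points (log2 odds -1.89, SE 0.38, adjusted p = 4.43e-05 by limma). L1_Mur2 and Lx3A followed at -31.2 and -30.2 points. It was narrowest in L1MB3, at 69.6% and 61.7% against 78.3% and 81.3%, a difference of -14.2 points (log2 odds -1.05, SE 0.40, adjusted p = 0.0134 by limma), with L1MB8 at -15.1 and L1MB2 at -15.5. The libraries of these names did not overlap between the tissues. With single libraries left out, 10 older L1 names were called without liver FxC (9.90%, compared with 7.05% of all names), 64 without ysE FxC (62.1% and 32.9%) and 75 without liver CxF (74.3% and 45.4%). The names share the same 2 libraries a tissue and are not independent, and an exact permutation of 2 against 2 libraries could not give a two-sided p below 0.33.

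Cystic EBs were more methylated than ysE in the same 101 names, all of which were called higher (97.5% of all names were, and 0% were called lower, also by edgeR), with a median log2 odds difference of 2.36 compared with 2.03 over all names. Among the 64 names with at least 1000 reads in each library, the largest gaps were in L1_Mm, at 82.0% and 74.9% in cystic EBs against 39.9% and 36.0% in ysE, a difference of 40.5 points (log2 odds 2.59, SE 0.40, adjusted p = 9.28e-10 by limma), and in Lx10 and L1_Mur2 (39.6 points each). The smallest were again in L1MB names, here L1MB3 (22.6), L1MB8 (23.9) and L1MB7 (24.3).

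Against liver, cystic EBs differed less. Of the 101 names, 44 were called higher by limma, compared with 31.3% of all names, while 0.147% of all names and 0 older L1s were called lower, at an adjusted or an unadjusted p under 0.05. All 44 were among the 68 other names, and 0 of the 33 rodent-named were called. The median log2 odds difference was 1.05 in the other names and 0.56 in the rodent-named, positive in all of them. In points, the groups lay closer together, with gains of 8.42 in L1_, 7.90 in Lx and 6.15 in L1VL, and 8.19 (L1MA) to 10.0 (L1MD) in the L1M groups. The split was not tested. Of the 33 rodent-named, 7 had an unadjusted p under 0.05, and edgeR on the methylated and unmethylated reads called 7 of them and 56 of the other 68. Among the 64 names with at least 1000 reads, the widest gaps were 11.7 points in L1_Mm (adjusted p = 0.0738), 11.2 in L1MDa (adjusted p = 0.0351) and 10.7 in L1M3 (adjusted p = 0.0304, all by limma), and the narrowest were 5.77 in Lx3B, 5.98 in L1VL1 and 6.10 in L1VL4. Nearly all of these calls were lost without either liver library or without cystic EB CxF, so that the count rests on single libraries. The median log2 odds difference was 0.82 without liver CxF, 1.01 without liver FxC and 0.65 without cystic EB CxF. Without chromosomes 3, 4 and 6 the count fell to 12 (12.4%, compared with 14.7% of all names). In each of these settings older L1 names were called less often than all names.

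For the RNA, 86063967 to 188223399 reads were counted on repeats per library, and 65.9% to 79.4% of them fell on the RNA gene repeats (rRNA, tRNA, snRNA and the like). The rest, 22954164 to 38807888 reads, is the base of the shares below. The tissue labels were checked in the RefSeq RPKM values. Afp, a secreted yolk sac protein, was at 6071 and 6628 in the ysE libraries, 700.4 and 1255 in mesoderm and 35.1 and 211.9 in the cystic EB libraries. All 5 ysE markers (Afp, Ttr, Apoa4, Cubn, Amn) were highest in ysE. Of the 5 mesoderm markers, Kdr, an endothelial receptor, was at 47.1 and 47.0 in mesoderm, 1.71 and 2.58 in ysE, against 2.36 and 5.40 in cystic EBs. Col1a1, Acta2 and Hba-x were also highest in mesoderm, although Acta2 reached 102.5 in 1 cystic EB library beside 133.3 and 108.7, and Pdgfra was highest in cystic EBs (9.66 and 10.5, against 8.26 and 4.80 in mesoderm). The pluripotency gene Pou5f1 was at 76.8 and 39.1 in cystic EBs and at most 0.130 in the other 2 tissues. The part of mixed cells in the L1 values was not tested.

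The repeat counts held a feature that bears on every RNA value of the older L1s. Neighbouring repeats of different classes often carried the same count in a library, over many kb. In ysE A, 34 repeats in a row of 24 names over 18.6 kb near Ppm1k on chromosome 6, among them 11 older L1s, each carried 1246 to 1249 reads, and in ysE B 30 repeats of the same stretch carried 2291 to 2294. On chromosome 17 near Gm30316, 106 repeats in a row over 77.8 kb, 6 of them older L1s, carried 1544 to 1548 reads in ysE A, and around the same L1MC5a element they carried 0 or 1 in ysE B. How reads were assigned to repeats, and whether spliced or multiply mapped reads were counted, is not given in the sources used here. Equal counts of this kind are not separate measurements of the elements. Elements of at least 20 reads that matched at least 2 of their 4 nearest listed neighbours within 1% or 1 read were therefore marked, and 17676 older L1s, 3.10%, were marked in at least 1 library. They carried much of the signal. In the library in which they were marked, such elements held 18.7% and 21.1% of the older L1 reads in cystic EBs (day 10, day 15), 37.2% and 43.3% in ysE (A, B), against 19.11% and 21.1% in mesoderm, compared with 0.662% to 2.40% of L1Md reads, 21.1% to 62.6% of LINE/L2 reads and 7.83% to 26.7% of all reads outside RNA genes. In each of these sets, as in older L1, both ysE libraries were the highest. Results are given with all elements and, as an alternative chosen after seeing the data, without the marked ones.

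Older L1s took a smaller share of the repeat reads in ysE than in the other tissues. The share was 7.18% and 7.31% in cystic EBs, 5.59% and 5.16% in ysE, against 7.41% and 7.34% in mesoderm. Without the marked elements it was 5.99% and 6.05%, 4.13% and 3.69%, and 6.46% and 6.25%. Under either count both ysE libraries lay below the other 4. L1Md fell further in ysE, with 23.1% and 24.1% in cystic EBs, 9.99% and 8.08% in ysE, against 20.9% and 19.6% in mesoderm. LINE/L2 had the reverse order with all elements, at 0.289% and 0.312%, 0.408% and 0.411%, and 0.329% and 0.330%, and without the marked elements it was at 0.216% and 0.230%, 0.204% and 0.184%, and 0.221% and 0.227%.

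Per kb of element and 1000000 reads outside RNA genes (RPM per kb), the 3 rodent-named groups and L1MA were lowest in ysE. L1_ had 0.299 and 0.291 in cystic EBs, 0.164 and 0.147 in ysE, against 0.284 and 0.269 in mesoderm. L1VL had 0.196 and 0.191, 0.0964 and 0.0758, and 0.170 and 0.154, and Lx had 0.222 and 0.233, 0.181 and 0.165, and 0.239 and 0.235. In these 3 groups both ysE libraries lay below the other 4, and so they did, by a smaller margin, in L1MA, at 0.261 and 0.261, 0.257 and 0.231, and 0.282 and 0.296. L1MB, on the other hand, was at 0.300 and 0.332 in cystic EBs, 0.424 and 0.388 in ysE, against 0.359 and 0.386 in mesoderm, and L1MC, L1MD and L1ME were also above the cystic EBs in both ysE libraries. This second pattern did not hold without the marked elements. L1MB was then at 0.209 and 0.213 in cystic EBs, 0.152 and 0.144 in ysE, against 0.204 and 0.229 in mesoderm, and L1MC, L1MD and other L1M also had their lowest libraries in ysE. L1ME remained above the cystic EBs, at 0.274 and 0.2801, against 0.337 and 0.291 in ysE, with 0.348 and 0.369 in mesoderm. This rested on 1 element, the L1MEg at chr5:5781495-5781571 within Gm15459, without which (chosen after seeing the data) L1ME was at 0.234 and 0.244, 0.213 and 0.178, and 0.254 and 0.277, ysE being lowest. In the rodent-named groups ysE stayed lowest without the marked elements, with L1_ at 0.243 and 0.230, 0.103 and 0.0885, and 0.228 and 0.213. These densities keep the marked elements in the library total, so leaving the marked elements out lowers ysE most by construction. In the library in which they were marked, they held 28.9% and 35.3% of the L1_ reads in ysE, against 14.2% to 16.7% in the other tissues. Of the L1MB reads they held 55.2% and 56.2% in ysE, against 19.3% to 30.1%. As a percent of the reads outside RNA genes that were not on marked elements, L1MB was at 0.0996% and 0.104% in cystic EBs, 0.0878% and 0.0863% in ysE, against 0.105% and 0.117% in mesoderm, so that ysE was still lowest but by less. On that base ysE was also lowest in L1_ (2.60% and 2.52%, 1.33% and 1.19%, and 2.62% and 2.44%), where cystic EBs and mesoderm overlapped, while in L1ME without the L1MEg element (0.1495% and 0.1600%, 0.165% and 0.143%, and 0.175% and 0.1897%) ysE and cystic EBs overlapped. Rodent names took 82.8% and 82.1% of the older L1 reads in cystic EBs, 71.5% and 69.9% in ysE, against 80.7% and 78.7% in mesoderm. Without the marked elements they took 84.6% and 84.3%, 77.9% and 77.6%, and 83.8% and 82.2%.

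**Figure D2:**
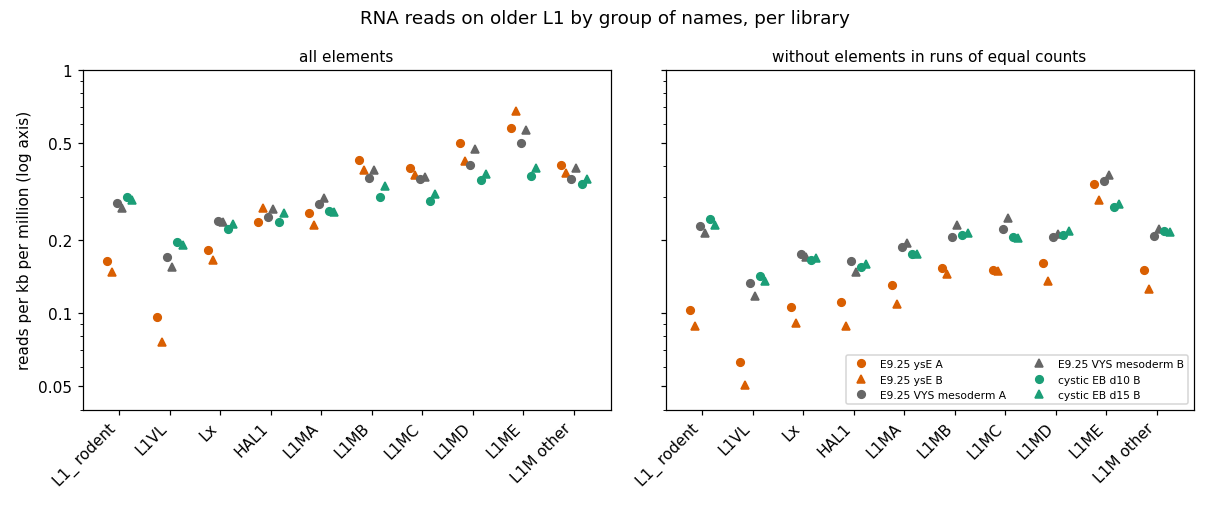
Reads per kb of element and 1000000 reads outside RNA genes (RPM per kb, log axis) for 10 groups of older L1 names, with all elements (left) and without elements in runs of equal counts (right); each point is 1 RNA library. In L1_ the ysE libraries (orange) were the lowest in both panels, at 0.164 and 0.147 on the left, while in L1MB they were the highest on the left (0.424 and 0.388) and the lowest on the right (0.152 and 0.144).

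By name, cystic EBs were compared with E9.25 ysE with the quasi-likelihood test of edgeR (Benjamini-Hochberg adjusted) over 1190 repeat names, which included all 126 older L1 names. Of these, 32 were higher and 13 lower in cystic EBs, 25.4% and 10.3%, compared with 16.9% and 17.1% of all names. Fewer were called without the day 10 or the day 15 cystic EBs, both among older L1 names and among all names, so that the counts rest on single libraries. The median log2 fold change was then 0.54 and 0.60 in the rodent-named and -0.24 and -0.11 in the others. Library sizes from RefSeq counts gave 32 higher and 2 lower, 27.0% together, compared with 29.5% of all names (235 higher and 116 lower of 1188). Of the 32 and 2, 23 and 0 were rodent-named and 9 and 2 others. With the main settings, the calls were split by the origin of the name, a split that was not tested. Among the 33 rodent-named, 24 were higher and 0 lower (1 lower at an unadjusted p under 0.05, and 1 by DESeq2), and among the other 93, 8 were higher and 13 lower. All 3 L1VL names, 6 of 9 L1_ names and 15 of 21 Lx names were higher. The median log2 fold change was 0.03 over the older L1 names and 0.02 over all names. Without the marked elements 19 names were called, 15 higher and 4 lower, and of the rodent-named 13 were higher and 0 lower and of the others 2 and 4 (median log2 fold change 0.03, positive in 53 of 93), while 8.81% of all names were higher and 11.3% lower.

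L1_Mus3, the most numerous L1_ name with 39281 elements, had 3259 and 2815 CPM (counts scaled by TMM to a library of 1000000) in cystic EBs, 947.8 and 854.9 in ysE, against 2397 and 2150 in mesoderm. Its log2 fold change was 1.75 (SE 0.13, adjusted p = 0.0017 by edgeR), and 1.37 without the marked elements. L1_Mur1 had CPM of 763.2 and 665.8, 190.9 and 130.8, and 575.1 and 468.2, and a log2 fold change of 2.15 (SE 0.22, adjusted p = 0.0026 by edgeR). L1VL1 was at 133.5 and 109.9, 39.7 and 34.7, and 61.1 and 61.5 CPM. In all of them the cystic EBs were highest and ysE lowest, without overlap. MusHAL1, the only HAL1 name called higher, had CPM of 107.5 and 112.8, 66.1 and 53.0, and 98.8 and 81.2. The largest fold change of all, 3.02 in L1M2b (SE 0.49, adjusted p = 0.0092 by edgeR), came from a name of 6 elements with 17 and 12 reads in cystic EBs and 1 and 3 in ysE. It rested on 1 of them, 4.28 kb from Blcap, with 15 and 12 reads in cystic EBs and 0 in both ysE libraries.

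The names that were lower in cystic EBs were nearly all L1M names. L1ME3Cz had a log2 fold change of -1.53 (SE 0.39, adjusted p = 0.0328 by edgeR), on 12.2 and 9.62 CPM in cystic EBs and 19.13 and 43.8 in ysE, and its ysE libraries were far apart. Without its 10 most read elements it turned to 0.12. L1MEg was at 141.8 and 125.5 CPM in cystic EBs, 276.1 and 263.8 in ysE, against 208.5 and 212.8 in mesoderm, a log2 fold change of -1.01 (SE 0.11, adjusted p = 0.0030 by edgeR). In each library 1 element, at chr5:5781495-5781571, held 40.8% to 61.7% of the L1MEg reads. L1MC5a had CPM of 27.1 and 24.9, 47.8 and 46.0, and 26.5 and 27.2, and a log2 fold change of -0.85 (SE 0.12, adjusted p = 0.0059 by edgeR). Of its ysE reads 73.4% (A) and 71.7% (B) lay on marked elements, and without these the value was -0.08 and not called.

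Between ysE and mesoderm, the endoderm and mesoderm layers of the yolk sac, most calls were lower in ysE and most of these were rodent names. By the same edgeR test 7 older L1 names were higher in ysE and 26 lower, 5.56% and 20.6%, compared with 10.8% and 9.58% of all names. Among the rodent-named 1 was higher (Lx10, log2 fold change 0.43) and 20 lower, and among the others 6 were higher and 6 lower. L1_Mus3 had a log2 fold change of -1.33 (SE 0.13, adjusted p = 0.0079) and L1_Mur1 one of -1.70 (SE 0.22, adjusted p = 0.0113, both by edgeR). Among names called without overlap between the tissues, the largest falls were in low names, L1M2b (-2.05), L1M3f (-2.02) and L1M6B (-1.90), the last with 1.89 and 1.28 CPM in ysE, with 5.97 and 5.84 in mesoderm. L1M3f turned to 0.015 over 5 kb from genes, and 1 of its elements, 0.102 kb from Gm36357 and in a run of equal counts, held 59.7% and 66.1% of its mesoderm reads and 0% in ysE. By the same rule the largest rises were L1MC5a (0.81), L1ME3B (0.74) and L1ME3A (0.73), and none of these was called without the marked elements, where L1ME3A turned to -0.13. Without the marked elements 1 name was higher and 16 lower, and of the rodent-named 0 were higher and 13 lower, while 6.94% of all names were higher and 5.17% lower. The counts lean on single libraries. They fell most without mesoderm A, and also without ysE B, mesoderm B or either cystic EB library, which lends its spread to the fit. In these settings older L1 names were called at a share near that of all names. With libraries left out in turn, the median log2 fold change of the rodent-named was -0.55 to -0.49. With only these 2 tissues 16 were called (12.8%, compared with 10.7% of all names). With the replicate letter as a block as well 8 were, all lower (6.40%, compared with 6.22% of all names, of which 31 were higher and 42 lower).

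Cystic EBs and mesoderm differed in 2 older L1 names by edgeR, 1 higher and 1 lower (0.794% each), compared with 1.51% of all names in either direction. L1VL1 was higher, with a log2 fold change of 0.99 (SE 0.14, adjusted p = 0.0247), and L1MEg was lower, with -0.65 (SE 0.11, adjusted p = 0.0379, both by edgeR), which turned to 0.07 without its 10 most read elements. Both calls were lost when any library of these 2 tissues was left out. With libraries left out in turn, the log2 fold changes were 0.84 to 1.17 in L1VL1 and -0.75 to -0.52 in L1MEg.

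**Figure D3:**
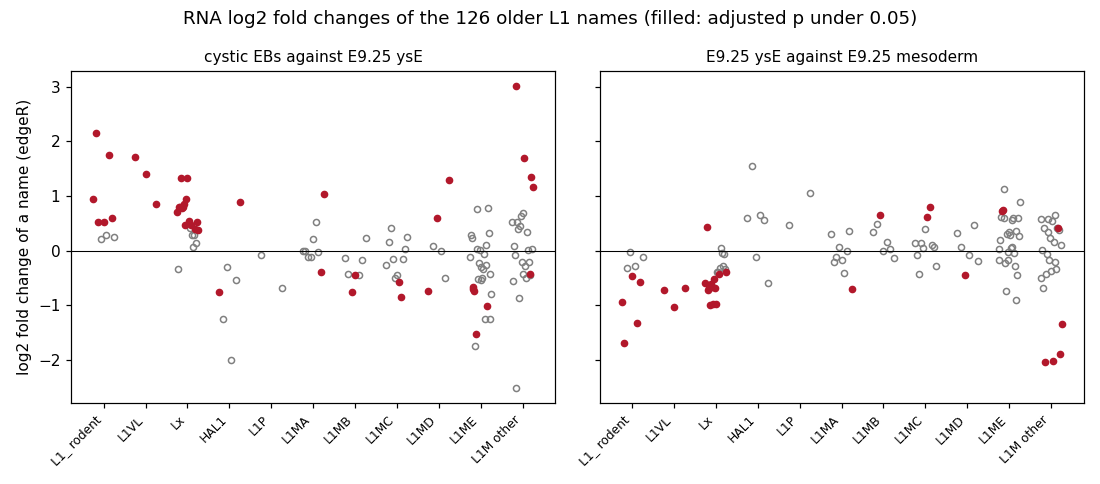
The edgeR log2 fold change (vertical axis) of each of the 126 older L1 names by group, for cystic EBs against E9.25 ysE (left) and E9.25 ysE against E9.25 VYS mesoderm (right), with all elements; filled points had an adjusted p under 0.05. In L1_, L1VL and Lx all 24 filled points lay above 0 on the left, and on the right 20 of 21 lay below 0.

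The L1Md names, for comparison, were called in all 6 of 6 cases in both comparisons, with log2 fold changes of 0.66 to 2.05 in cystic EBs against ysE and -1.29 to -0.82 in ysE against mesoderm. The 3 comparisons share libraries, so that the same low ysE values enter both of these lists.

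A few elements held many of the reads. The 5 most read older L1s held 5.88% of the mean share, the first 100 16.5% and the first 1000 29.8%. All 5 overlapped a RefSeq gene or pseudogene, so that their reads cannot be assigned to the L1. An Lx3B at chrX:152907041-152912611, which overlaps the ribosomal protein pseudogene Rpl7a-ps12 and carries an H3K4me3 peak, had 2112 and 2552 RPM (reads per 1000000 outside RNA genes) in cystic EBs, 1984 and 1701 in ysE, against 2648 and 2810 in mesoderm. An L1_Mus1 at chrX:79190355-79196303 overlapping another such pseudogene, Rps24-ps3, had 266.4 and 405.8, 221.0 and 196.4, and 468.3 and 359.1. The L1MEg at chr5:5781495-5781571, within Gm15459, had 225.1 and 204.1, 700.7 and 638.8, and 532.6 and 516.9, so that ysE was its highest tissue. The elements that overlap RefSeq genes, 75286 in all, held 27.2% to 35.7% of the older L1 reads of a library, and the 415571 that lay over 5 kb from a gene held 47.1% to 49.9%.

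The 26 L1_Mus3 copies on chromosome 14 to which the first printed sequences belong are 1838 to 1854 bases long and lie within chr14:3218995-19575826. They were chosen for a mean over all libraries of more than 50 RPM, which favours copies that are high in some tissue, so that their levels are a description. Summed, they had 5596 and 4666 RPM in cystic EBs, 661.3 and 525.2 in ysE, against 3829 and 3576 in mesoderm, and held 37.7% of the mean share of L1_Mus3. The part held by such copies differed by tissue. The 10 most read L1_Mus3 elements, nearly all of them among these copies, held 21.0% and 19.9% of its reads in cystic EBs, 10.3% and 9.55% in ysE, against 17.7% and 18.6% in mesoderm. Without this minimum 34 copies of 1821 to 1856 bases were found there, with 5931 and 4929, 693.3 and 553.9, and 4058 and 3767 RPM. None of the 26 was in a run of equal counts. Those of them among the 30 most read older L1s overlapped a RefSeq gene, apart from 1 that lay 18.1 kb from Gm10410. Their reads therefore cannot be assigned to the L1, and this holds for the next 2 copies as well. The copy upstream of Gm3239 had 8434 and 5928 reads in cystic EBs, 771 and 1055 in ysE, against 4296 and 4364 in mesoderm, and the one upstream of Lamtor3-ps 5641 and 4118, 510 and 717, and 3190 and 3079. These 2 stretches matched at all but 1 position, and the share of each copy is uncertain. The L1_Mus2 copy upstream of Gm40364 had 244 and 431, 622 and 1383, and 287 and 518 reads, and the one upstream of Gm40367 229 and 419, 574 and 1245, and 256 and 488. These did lie in a run of equal counts.

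Some elements were read mostly in 1 tissue. For each tissue, the 5 with the widest margin over every library of the other tissues were taken from the elements with at least 20 RPM in both of its libraries, so that these reads chose them and their levels are a description. In mesoderm, the 5 lay 0.377 to 2.78 kb from the embryonic globin genes Hbb-y and Hbb-bh1. The Lx9 at chr7:103851035-103851377, 0.377 kb from Hbb-y, had 13 and 24 reads in cystic EBs, 178 and 264 in ysE, against 6304 and 6734 in mesoderm. This Lx9 and an Lx2 among the 5 were in runs of equal counts, and the rest were not. Hba-x, another embryonic globin gene, was at 3884 and 3741 RPKM in mesoderm and 73.6 and 83.7 in ysE, so that a marker of embryonic blood moved with these elements, and its part in their reads was not tested. In ysE all 5 were in runs of equal counts, led by the L1ME3A at chr6:57536926-57537209 near Ppm1k, with 2 and 1 reads in cystic EBs, 1246 and 2291 in ysE, against 2 and 0 in mesoderm. It held 42.8% and 37.5% of all L1ME3A reads in ysE. In cystic EBs none of the 5 was in such a run, 4 of them overlapped a RefSeq gene, and the L1_Mm at chr1:81499514-81500000, 54.2 kb from the nearest gene, had 5385 and 5641 reads, against 1027 and 1295 in ysE, with 1830 and 2239 in mesoderm.

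**Figure D4:**
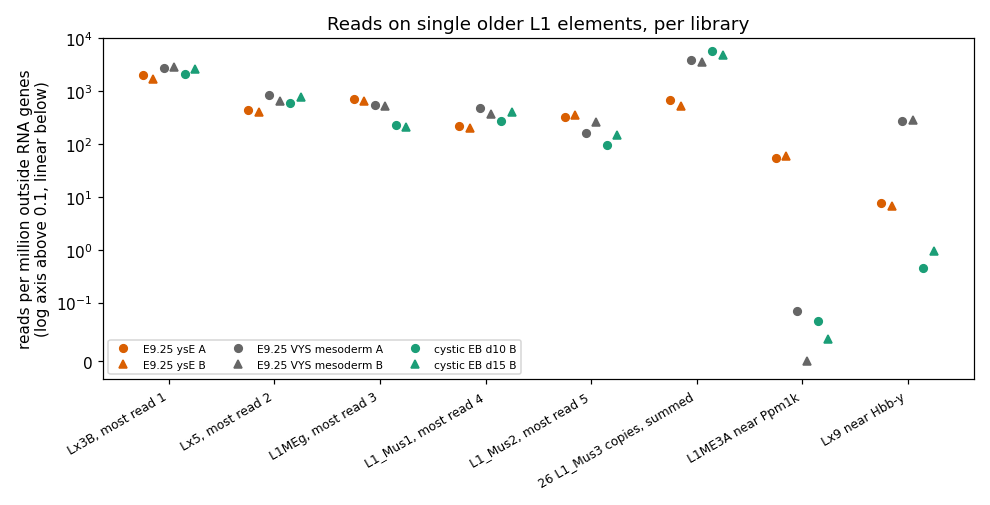
RPM, reads per 1000000 outside RNA genes (log axis above 0.1, linear below) on the 5 most read older L1 elements, the sum of 26 L1_Mus3 copies on chromosome 14, an L1ME3A near Ppm1k and an Lx9 near Hbb-y; each point is 1 RNA library. The L1_Mus3 copies were lowest in ysE (661.3 and 525.2), the L1ME3A was read almost only in ysE and the Lx9 almost only in mesoderm.

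RNA and methylation were set side by side by element, as a description, since they came from different embryos. Among older L1s with at least 10 CpG reads in ysE, those at 0 to 25% methylation (2635 elements) had 0.168 and 0.154 RPM per kb in ysE, those at 25 to 50% (2716 elements) 0.109 and 0.0858, those at 50 to 75% (3429 elements) 0.219 and 0.205, and those at 75 to 100% (4420 elements) 0.501 and 0.506. The density was thus highest in the most methylated elements but lowest at 25 to 50%, also without the marked elements (0.0815 and 0.0642 at 25 to 50%, 0.387 and 0.327 at 75 to 100%). The percent of elements with a read did not follow it, at 37.2% and 42.2% for the least methylated and 32.6% and 38.9% for the most methylated. The more methylated elements also lay closer to genes, with medians of 7.58 kb and 24.6 kb. In cystic EBs the densities were 0.145 and 0.166, 0.218 and 0.188, 0.167 and 0.173, and 0.229 and 0.240 from the least to the most methylated, with 45.6% and 45.1% of elements read in the first and 41.7% and 39.0% in the last.

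Genes known to act on L1s had the following levels in the same 6 RNA-seq libraries, the cystic EBs being of clone JN, with no test made. Dnmt3b, a de novo DNA methyltransferase, was at 39.3 and 17.4 RPKM in cystic EBs, 7.39 and 8.21 in ysE, with 6.71 and 7.08 in mesoderm, and its cofactor Dnmt3l at 30.7 and 12.505 in cystic EBs and at most 0.078 in the others. Dnmt3a, another de novo methyltransferase, was instead highest in ysE, at 13.09 and 12.04. It was at 8.47 and 10.43 in cystic EBs and at 6.76 and 7.72 in mesoderm. Dnmt1, the maintenance enzyme, was at 45.5 and 36.3 in cystic EBs, 40.3 and 41.9 in ysE, with 53.8 and 58.7 in mesoderm. Tex19.1, which restrains L1, was at 6.48 and 7.17 in cystic EBs, 9.39 and 8.41 in ysE, with 0.952 and 0.940 in mesoderm, and it reached 64.1 in the single E12.5 ysE library, while E12.5 liver had 0.025 and 0.045. Mov10, an RNA helicase that limits L1, was highest in ysE, at 13.8 and 16.5, against 9.23 and 10.7 in cystic EBs and 5.10 and 7.04 in mesoderm. Mphosph8, a subunit of the HUSH complex that silences L1, was lowest in ysE, at 3.46 and 2.51, against 11.9 and 9.17 and 5.19 and 5.58. Morc3 was at 26.1 and 24.0 in cystic EBs, 12.1 and 11.02 in ysE, with 13.8 and 13.5 in mesoderm. Among the 6 libraries Trim28 (197.9 and 127.8, 78.2 and 92.4, and 133.5 and 120.3) was also lowest in ysE. So was Setdb1 (17.7 and 13.3, 9.34 and 10.95, and 14.8 and 15.6). Uhrf1 (53.8 and 37.0, 46.6 and 52.8, and 62.9 and 64.9) overlapped between cystic EBs and ysE. In the cystic EB libraries of replicate A (day 10, day 15), which had no repeat counts, some levels differed. There Trim28 (43.7 and 27.1) and Uhrf1 (19.99 and 11.1) lay below ysE. Setdb1 (22.9 and 17.4) and Mphosph8 (30.3 and 29.995) stayed above it. Dnmt3l (6.07 and 7.14) was lower than in the JN libraries but still above ysE.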

How the data were processed

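The authors aligned RNA-seq reads with GSNAP to mm10 and deposited read counts, without normalization, per RepeatMasker element, and RPKM per RefSeq transcript. For bisulfite reads they deposited the percent methylation and read number per CpG and strand called with BisSNP, and for H3K4me3 the peaks of MACS (1.4.2). The RepeatMasker alignment score per element was also deposited, and reads per element are here divided by its length. The strand column of the deposited repeat counts holds only a dot, and how strand was used in counting is not given in the sources used here, so reads from overlapping transcripts cannot be told apart.

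Counts were summed by repeat name and tested with edgeR 4.0.16 (filterByExpr, TMM, quasi-likelihood, 3 tissues in 1 fit) in R 4.3.3. CpG reads were summed by name and log2((methylated + 1)/(unmethylated + 1)) was tested with limma 3.58.1. P-values were adjusted over all names tested by Benjamini-Hochberg (FDR 5%), and DESeq2 1.42.0 was an alternative. SE in RNA is the absolute log2 fold change over the root of F. The self-made code was tested on simulated data. Tables were made in Python 3.11.15 with pandas 2.3.3.

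Members, groups and gene lists were chosen with earlier results of these data known. Named are the most numerous name of each group, up to 3 called names of largest fold change each way without overlap, the 3 widest and 3 narrowest methylation gaps, and the 5 most read elements; Lx members, Lx10, MusHAL1, L1VL1, the chromosome 14 copies and elements read in 1 tissue were added after their values were seen. Nothing in the labels says that samples beyond litters, clones or crosses are separate cultures. Whether samples of the same replicate letter or cross are pairs is not given in the labels. The silencing gene Tasor was not analysed here.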

Additional observations from a re-analysis of the deposited data

How the results depend on the processing

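Among calls of older L1 names, edgeR without elements in runs of equal counts (chosen after seeing the data) gave 19 in cystic EBs against ysE (15.1%, and 20.2% of all names). It gave 4 in cystic EBs against mesoderm (3.17%, and 6.44% of all names) and 17 in ysE against mesoderm (13.5%, and 12.1% of all names). Cystic EBs against mesoderm had 6 by DESeq2 (4.84%, and 11.4% of all names) and 1 over 5 kb from genes (0.8%, and 2.04% of all names). For ysE against mesoderm the counts were 11 with library sizes from RefSeq counts (8.73%, and 10.5% of all names) and 16 with only these 2 tissues (12.8%, and 10.7% of all names). RefSeq library sizes moved the median of all names to 0.23 in cystic EBs against ysE. There 32 older L1 names were then higher and 2 lower (27.0% together, and 29.5% of all names). DESeq2 called 60 in cystic EBs against ysE (47.6%, and 43.2% of all names) and 47 in ysE against mesoderm (37.3% and 31.9%).

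The replicate letter used as a replicate block, in a fit of these 4 libraries that without it had 16 calls, left 8 in ysE against mesoderm (6.40%, and 6.22% of all names). Over names, the A minus B differences of ysE and mesoderm had a correlation of 0.0092. With 1 such difference per tissue, this cannot show whether samples of a letter belong together. The crosses as a block changed no methylation call count by over 1.5 times.

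With libraries left out in turn, calls numbered 10 to 45, 0 to 2 and 0 to 30 in the 3 RNA comparisons (the fewest in cystic EBs against ysE without day 10, and 17 without day 15), 10 to 101 in ysE against liver, 0 to 64 in cystic EBs against liver and 101 to 103 in cystic EBs against ysE methylation. Methylation was 70.8% to 72.4% in liver, 42.0% to 52.2% in ysE and 75.6% to 83.0% in cystic EBs, the flank difference -6.58 to -6.21, -9.00 to -8.87 and -9.50 to -5.99 points (same order), and the RNA share 7.18% to 7.31%, 5.16% to 5.59% and 7.34% to 7.41% in cystic EBs, ysE and mesoderm.

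With at least 1000 CpG reads, 64 names were called in ysE against liver and 64 in cystic EBs against ysE, the number tested (94.3% and 96.5% of all names were called). Cystic EBs against liver had 4 calls with at least 20 reads (3.33%, and 8.26% of all names) and 12 without the chromosomes standing apart (12.4%, and 14.7% of all names). Methylation in elements of at least 1 kb was 66.2% in liver, 39.2% in ysE and 73.7% in cystic EBs, and under 300 bases 75.3% in liver. The mean of single calls in liver was 73.7%, and the median over elements with at least 5 reads 80.9% in liver and 92.9% in cystic EBs. The flank difference was -10.2 (200 bases), -10.8 (5 kb) and -8.33 (without those chromosomes) in ysE and -6.73 and -6.13 (200 bases, 5 kb) in liver.

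The RNA share without the 100 most read elements was 5.89% in cystic EBs, 4.74% in ysE and 6.06% in mesoderm, and without runs of equal counts 6.02%, 3.91% and 6.36%. In reads per 1000000 RefSeq counts, older L1 stood at 19336, 11782 and 15426. Directions turned in L1ME3A (ysE against mesoderm, -0.19 without the 10 most read elements of a name, -0.13 without runs), L1M3f (the same comparison, 0.015 over 5 kb from genes), L1MEg (cystic EBs against mesoderm, 0.073 without the 10) and L1ME3Cz (cystic EBs against ysE, 0.12 without the 10). Over all alternatives of named members, 297 values kept direction and side of the threshold, 89 no longer passed it, 2 newly did and 5 turned. Apart from the settings' own construction, the cause was not tested.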
